A study of Mus musculus with 18 samples.

Results

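The comparison asks which transcripts of resting CD4+ T cells differ 1 week after loss of LAT. It sets 3 arrays of LAT KO mice against 3 arrays of WT mice, chosen from the sample titles by genotype and by 1 week of tamoxifen, 6 of the 18 arrays in the series. Each array measured RNA from the sorted CD44low CD4+ spleen cells of 1 C57BL/6 mouse on a single-colour Agilent mouse array. By the titles, WT mice were ERCre- LAT f/- and LAT KO mice were ERCre+ LAT f/-; both groups thus had 1 floxed and 1 null Lat allele and both received tamoxifen for 1 week. The series description instead calls all mice Cre-positive, and by the titles the presence of Cre and the loss of LAT cannot be told apart. The same titles give 3 LAT KO and 3 WT mice after 4 weeks of tamoxifen, and Y136F mice (ERCre+ LAT f/m), which keep a mutant LAT. In LAT KO replicate 1 at 1 week and LAT KO replicate 2 at 4 weeks the sex-linked genes went against the labels, so the main results are given with and without the former. The labels give no age, and they do not say which cells of these mice express the Cre.

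LAT is a membrane adaptor of T cells. When the T cell receptor (TCR) is engaged, the kinase ZAP-70 phosphorylates LAT, which then gathers phospholipase C-gamma 1 and the GRB2-SOS complex and so opens the calcium, protein kinase C and RAS-ERK pathways. Resting T cells receive weak, continuous TCR signals from self-peptides, called tonic signals, and immediate early genes such as Nr4a1 (Nur77) and the EGR family are widely used as a readout of TCR signal strength.

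After 1 week, 6 genes were lower in LAT KO cells and none was higher among 32314 genes and unnamed sequences tested (0.0186% called; limma, Benjamini-Hochberg adjusted p under 0.05). They were the immediate early transcription factor genes Egr1, Egr2, Egr3 and Nr4a1, the lymphocyte transcription factor gene Irf4, and Syp, which encodes the vesicle protein synaptophysin. The fall ranged from 2.30-fold for Syp to 5.42-fold for Egr2. At an unadjusted p under 0.05, 310 sequences were higher (0.959%) and 619 lower (1.92%).

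The upstream sequences of Nr4a1 and Egr2 are shown, as 2 called genes with large falls whose windows held matches to the motifs below. Each is the 250 bases before the start in RefSeq (GRCm38.p6, plus strand). Capitals mark matches to the cAMP response element half-site TGACG or its reverse CGTCA and to the CArG box. The CArG box is the sequence bound by serum response factor. Egr2 has 5 listed starts, and the window with the most matches was taken. The Nr4a1 window is chr15:101266596-101266845 and the Egr2 window is chr10:67537619-67537868.
Nr4a1: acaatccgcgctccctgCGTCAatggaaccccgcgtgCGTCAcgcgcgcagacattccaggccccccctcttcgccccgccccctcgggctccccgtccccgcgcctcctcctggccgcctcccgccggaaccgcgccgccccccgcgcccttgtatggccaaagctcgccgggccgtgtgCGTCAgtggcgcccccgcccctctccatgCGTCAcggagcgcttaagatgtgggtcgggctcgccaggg
Egr2: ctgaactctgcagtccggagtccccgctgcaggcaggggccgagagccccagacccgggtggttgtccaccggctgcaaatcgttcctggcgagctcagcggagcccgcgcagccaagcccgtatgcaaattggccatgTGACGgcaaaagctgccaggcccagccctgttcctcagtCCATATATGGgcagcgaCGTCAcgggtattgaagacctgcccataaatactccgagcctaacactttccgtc

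Nr4a1 held 4 half-sites and no CArG box in this window, and Egr2 held 2 half-sites and 1 CArG box at 72 bases before the start. The windows of Irf4 and Syp, which were also called, held neither motif. No window was available for Egr1 and Egr3. On both strands, 19.8% of the 27025 genes with such a window held the half-site and 1.6% held a CArG box. Of the 7 tested EGR, NR4A and NAB genes that could be matched, 6 held a half-site and 1 a CArG box. The letters describe these windows only and show no binding.

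Levels below are scaled log2 signals, the log2 intensity minus the 75th percentile of the array, so that 0 is that percentile and 1 unit is a 2-fold difference. Nr4a1 encodes an orphan nuclear receptor that TCR signals induce within minutes. It was at -0.20, -0.12 and -0.03 in WT replicates 1, 2 and 3 and at -2.27, -2.15 and -1.97 in LAT KO replicates 1, 2 and 3. The 2 groups lay far apart and each was tight. With 3 arrays in each group, Nr4a1 fell by 2.02 ± 0.15 log2 units (SE; limma adjusted p = 5.995e-06), which is 4.04-fold.

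Egr1 and Egr2 encode zinc finger factors; EGR2 and EGR3 also restrain T cell activation. Egr1 was at 1.41, 1.095 and 1.48 in the WT arrays and at -0.20, -1.43 and -1.34 in the LAT KO arrays. Egr2 was at 1.61, 1.05 and 1.62 in WT and at -0.35, -1.64 and -1.04 in LAT KO. For both genes every LAT KO array lay below every WT array, and LAT KO replicate 1 was the highest of its group. Egr1 fell by 2.32 ± 0.27 (SE; limma adjusted p = 0.000881) and Egr2 by 2.44 ± 0.27 (0.000881).

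Egr3, a much dimmer probe, was at -2.00, -1.96 and -1.55 in WT and at -3.44, -3.60 and -3.03 in LAT KO, so it fell by 1.52 ± 0.21 (SE; limma adjusted p = 0.009746). Irf4 encodes a factor whose level follows TCR signal strength and which directs effector differentiation. It was at 0.24, -0.39 and -0.02 in WT and at -2.02, -2.65 and -1.55 in LAT KO. Irf4 fell by 2.02 ± 0.23 (SE; limma adjusted p = 0.000881), again with no overlap. Syp, best known from neurons, had a bright probe at 4.31, 3.90 and 4.30 in WT and at 3.19, 2.99 and 2.71 in LAT KO. It fell by 1.20 ± 0.19 (SE; limma adjusted p = 0.04055), close to the threshold.

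**Figure D1:**
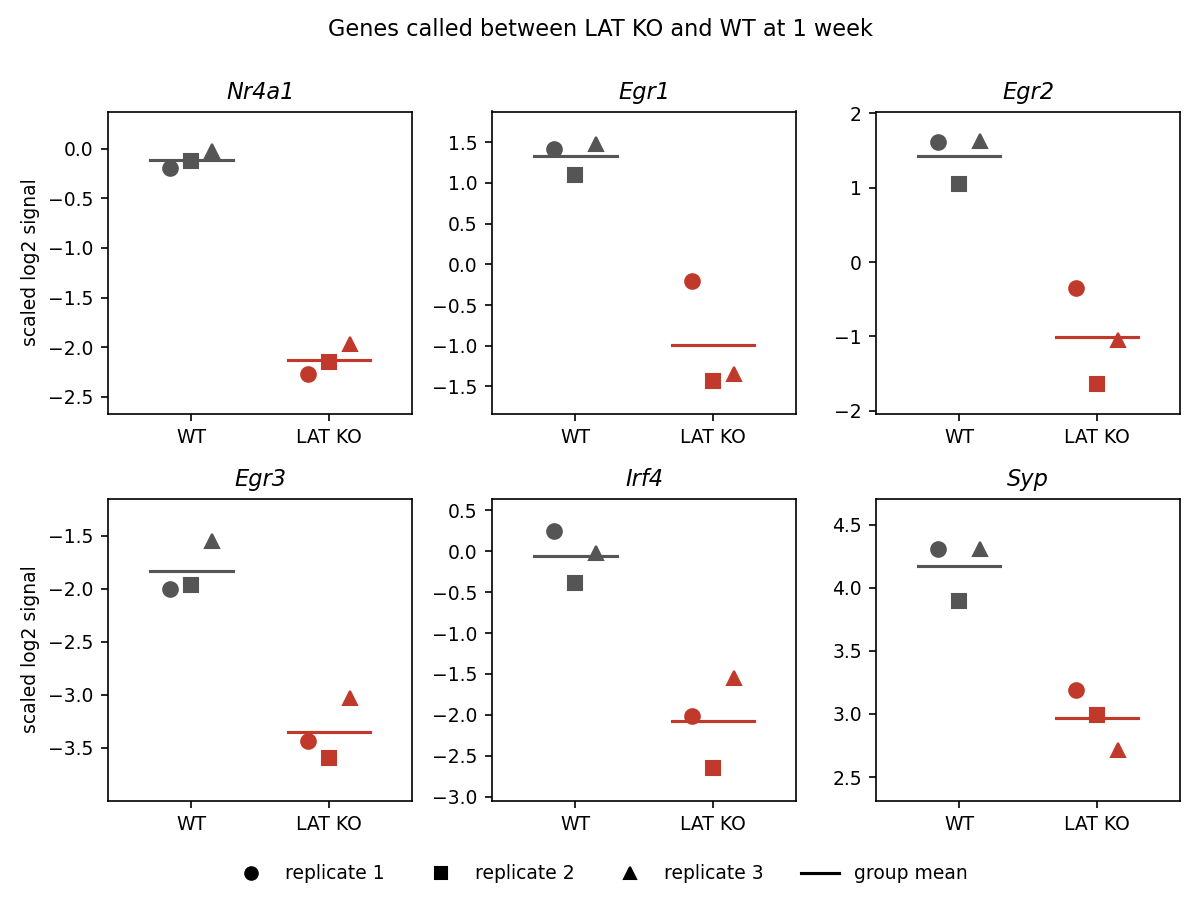
Scaled log2 signal (vertical axis, a separate range per gene) of the 6 called genes in the 3 WT and 3 LAT KO arrays at 1 week; symbols are replicates and lines are group means. In all 6 genes the LAT KO arrays lie below the WT arrays, and LAT KO replicate 1 is the highest LAT KO array for Egr1, Egr2 and Syp.

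These calls differed in how far they rested on single arrays. Nr4a1, Egr1 and Egr2 passed in 22 of 23 alternative settings and Irf4 in 21, while Egr3 passed in 17 and Syp in 10. Egr3 was lost without LAT KO replicate 2 or without WT replicate 3, and Syp was lost without LAT KO replicate 2 or 3 or WT replicate 1 or 3. With the spread estimated from the 6 arrays of the comparison alone, none passed in limma (142 higher and 174 lower at an unadjusted p under 0.05, 0.439% and 0.538%), and Nr4a1 had an adjusted p of 0.07207. Only 1 slide held arrays of both groups; on it LAT KO replicate 3 minus WT replicate 3 was -1.95 for Nr4a1, -2.82 for Egr1, -2.67 for Egr2, -1.48 for Egr3, -1.54 for Irf4 and -1.59 for Syp, against a median of 0.07 over all genes.

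**Figure D2:**
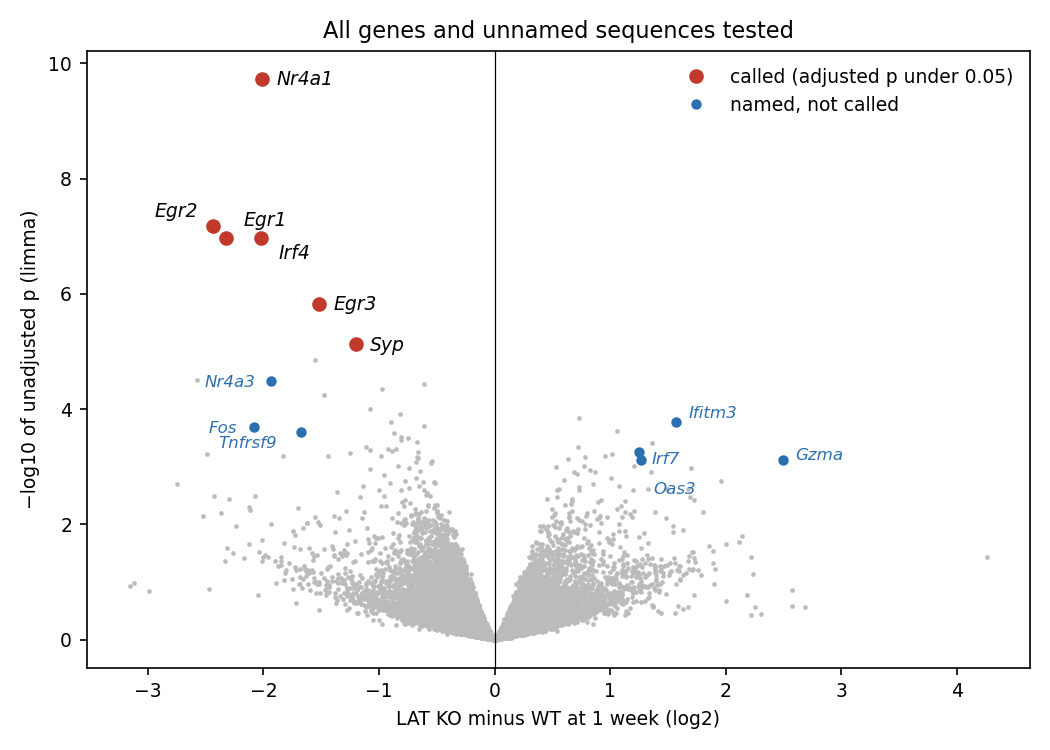
Each point is 1 of the 32314 genes or unnamed sequences tested, with the LAT KO minus WT difference in log2 (horizontal axis) and −log10 of the unadjusted limma p (vertical axis). The 6 called genes, in red, are all on the lower side; the 7 genes in blue, Gzma at 2.495 and Fos at -2.08 among them, were not called.

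The 9 tested EGR, NR4A and NAB genes all had a negative difference, 4 of them called, with a median of -1.52 against -0.05 over all genes tested. Earlier results of these data were known when the list was drawn up, so its direction is no independent evidence. In 6 of the 9 genes every LAT KO array lay below every WT array (2.74% of the 26166 sequences with 6 values). Besides the 4 called genes these were Nr4a3, a second NR4A receptor gene, and Nab2, a corepressor of EGR factors. Nr4a3 was at -3.79, -3.68 and -3.61 in WT and at -5.32, -6.24 and -5.33 in LAT KO, a difference of -1.94 ± 0.35 (SE; limma adjusted p = 0.1158), with 2 of 3 LAT KO arrays well above background. Nab2 was at -3.06, -3.32 and -2.79 in WT and at -3.94, -4.56 and -3.91 in LAT KO (-1.08 ± 0.28, adjusted p = 0.5954). The remaining members overlapped between groups: Egr4 differed by -0.22 ± 0.44, Nr4a2 by -0.23 ± 0.26 and Nab1 by -0.21 ± 0.20.

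Fos, the AP-1 subunit gene, was at -3.89, -4.37 and -3.58 in WT and at -5.47, -7.25 and -5.36 in LAT KO. The groups did not overlap and 2 of 3 LAT KO arrays were well above background, but the difference of -2.08 ± 0.44 (SE) did not pass (limma adjusted p = 0.3475). Among the 12 tested AP-1 and BATF genes 3 had an unadjusted p under 0.05, all lower: Fos, Fosb (-0.49) and Maf (-0.65). Fosb and Maf overlapped between the groups. Over all sequences 1.92% were lower at that p. The median of the list was -0.05, the same as over all genes. None of the 19 other immediate early genes was called; their median was -0.14, and 2 were lower at an unadjusted p under 0.05.

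Genes that ERK induces to limit its own activity showed smaller differences. Of 12 tested DUSP, Sprouty and Spred genes none was called and 4 were lower at an unadjusted p under 0.05 (1.92% of all sequences), with a median of -0.31. Dusp6, a cytoplasmic ERK phosphatase gene, was at 2.47, 2.27 and 2.42 in WT and at 1.98, 1.47 and 1.67 in LAT KO (-0.68 ± 0.17, limma adjusted p = 0.5306). Dusp2, a nuclear phosphatase gene, was at 3.77, 3.81 and 3.17 in WT and at 2.63, 2.97 and 2.72 in LAT KO (-0.81 ± 0.18, adjusted p = 0.4401). Both genes separated the groups completely. Spry1 (-0.72, no value in LAT KO replicate 3) and Dusp4 (-0.47) were the other members under that p. The Spry1 spot left out in LAT KO replicate 3 was at -1.37, above the WT arrays at -2.13, -1.87 and -2.20.

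Receptors and signalling parts of the TCR pathway itself had median differences near 0 with all arrays. Of 13 tested genes of the TCR-CD3 complex, its coreceptor and kinases, none had an unadjusted p under 0.05, and the median was -0.02. The LAT signalosome (16 genes), the calcium, calcineurin and NFAT genes (19) and the NF-kB subunits and inhibitors (13) had medians of -0.04, 0.00 and -0.08, with no call in limma. At an unadjusted p under 0.05 the first of these had 1 gene higher and 1 lower, and the other 2 lists had none. Over all sequences 0.959% were higher and 1.92% lower at that p. Of the 20 negative tuners of TCR signalling 2 were lower at that p, and their median was -0.09. One was Ptpn6, which encodes the phosphatase SHP-1, was at 2.31, 1.95 and 2.34 in WT and at 1.74, 1.55 and 1.32 in LAT KO (-0.67 ± 0.15, adjusted p = 0.459). A second Ptpn6 probe differed by -0.50, with overlap. Without LAT KO replicate 1 the TCR-CD3 median was -0.09 and the NF-kB median -0.22, each with 12 of 13 negative. The median over all sequences was then 0.03. The LAT signalosome, calcium and negative tuner medians were -0.07, -0.09 and -0.15 in that fit. On the shared slide the medians of these lists ran from -0.46 (NF-kB) to -0.25 (calcium), against 0.07 over all genes.

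The signal of Lat itself differed by less than these few arrays could resolve. Its probe was at 2.75, 3.47 and 3.37 in WT and at 2.32 and 2.73 in LAT KO replicates 1 and 3. The spot of LAT KO replicate 2 was marked as an outlier and left out; kept, it was at 3.19, within the WT range. The difference was -0.67 (exact two-sided permutation test, p = 0.2, the smallest that 2 against 3 allow) and -0.45 with that spot kept (exact p = 0.2, where 0.1 is the smallest). The sources used here do not place this probe inside or outside the floxed segment, so its signal does not check the deletion.

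Activation receptors brought out how LAT KO replicate 1 stood apart. Tnfrsf9, which encodes the costimulatory receptor 4-1BB, was at 0.14, -0.16 and -0.01 in WT and at -0.47, -2.19 and -2.39 in LAT KO. Its difference of -1.67 ± 0.36 (SE) was not called (limma adjusted p = 0.3775), whereas without LAT KO replicate 1 Tnfrsf9 fell by 2.28 ± 0.25 (adjusted p = 0.0005523). A second, dimmer Tnfrsf9 probe differed by -1.21 over 5 arrays. Il21, a cytokine gene of helper T cells, was at -3.93, -4.02 and -3.79 in WT, at -3.17 in LAT KO replicate 1 and at -6.99 and -5.76 in the other 2 LAT KO arrays. With all arrays it differed by -1.39 ± 0.61 (adjusted p = 1), and without LAT KO replicate 1 it fell by 2.46 ± 0.38 (adjusted p = 0.02731). Il21 was well above background on 2 of the 3 LAT KO arrays, replicate 1 being the brightest, so the size of that fall rests in part on a signal near background.

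Without LAT KO replicate 1, 9 sequences were called, all lower (0.028% of 32126): the 6 genes above, Tnfrsf9, Il21 and 1 unnamed sequence, whose difference went from -1.003 to -1.475. At an unadjusted p under 0.05, 567 were then higher (1.76%) and 1109 lower (3.45%), and the median difference over all genes went from -0.05 to 0.03. Egr1 fell by 2.72 and Egr2 by 2.77 in that fit, and the other 4 genes by 1.95 (Nr4a1), 2.05 (Irf4), 1.48 (Egr3) and 1.32 (Syp). Leaving out also the 4-week LAT KO array whose sex-linked genes went against its label gave 10 calls, with Penk, the proenkephalin gene, and Tmem158 added and Egr3 lost.

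**Figure D3:**
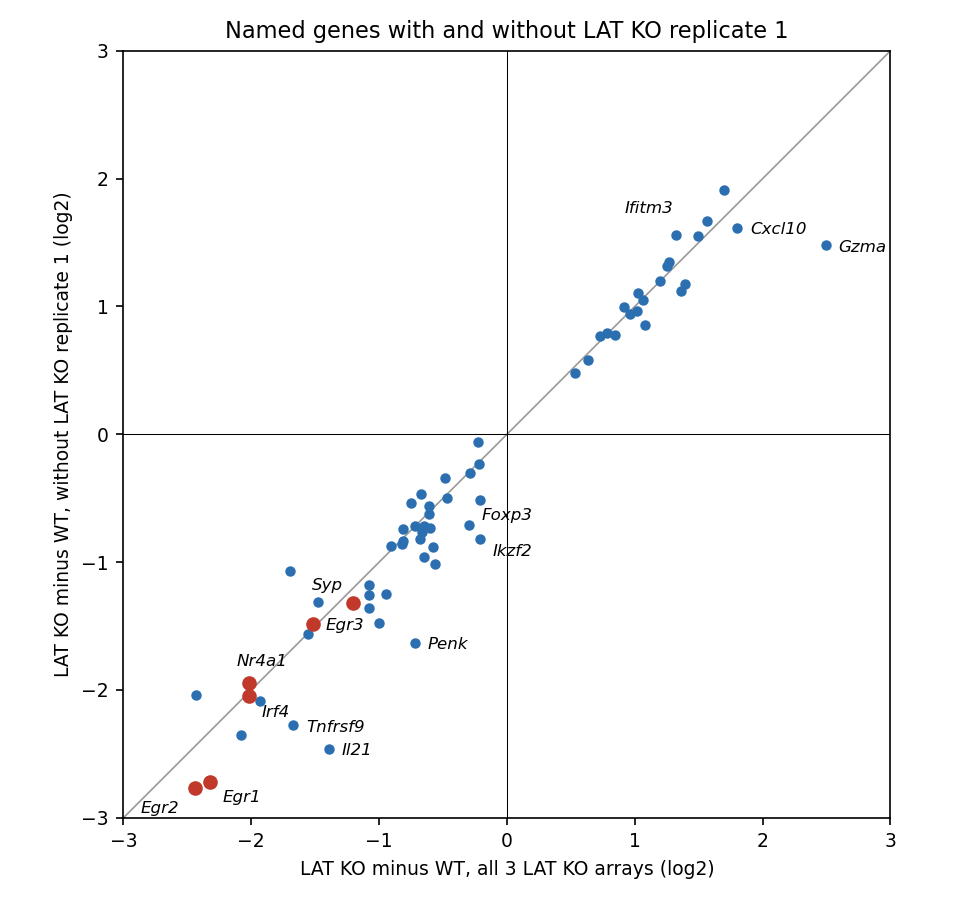
LAT KO minus WT in log2 for 66 named genes and unnamed sequences, with all 3 LAT KO arrays (horizontal axis) and without LAT KO replicate 1 (vertical axis); red points are the 6 called genes and the grey line marks equal values. Tnfrsf9, Il21, Penk, Foxp3 and Ikzf2 lie below the line, and Gzma at 2.495 and 1.48 lies right of it.

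The activation and costimulatory receptor list had a median of -0.27 over 13 genes, against -0.05 over all genes. At an unadjusted p under 0.05, 3 of them were lower (1.92% lower over all sequences). Without LAT KO replicate 1 the median was -0.50 with 7 lower (3.45% lower over all sequences, median 0.03). Its median was -0.03 without LAT KO replicate 3, with 3 lower genes (2.47%), against -0.12 over all sequences. Cd83, an activation marker gene, was at 0.82, 0.83 and 0.15 in WT and at 0.07, -0.59 and -0.93 in LAT KO (-1.08 ± 0.25, limma adjusted p = 0.4957). Cd200, which encodes an inhibitory ligand, differed by -0.94 ± 0.29, with overlap between the groups. The 14 genes of the regulatory T cell list went the same way. This list shares Tnfrsf9, Tnfrsf18 and Il2ra with the activation list, so they are not independent. Its median was -0.31, with 3 lower genes at an unadjusted p under 0.05 (1.92%). Without LAT KO replicate 1 it was -0.74 with 10 lower genes (3.45%). It was -0.09 without LAT KO replicate 3, with 2 lower genes (2.47%), again against -0.12 over all sequences. The values of both lists thus rest on which LAT KO arrays are included. Gpr83, a receptor gene of regulatory T cells, was at 2.29, 2.21 and 1.66 in WT and at 1.32, 0.99 and 0.60 in LAT KO (-1.08 ± 0.22, adjusted p = 0.2435). Foxp3, their defining factor, was at 0.40, -0.05 and 0.06 in WT, at 0.65 in LAT KO replicate 1 and at -0.18 and -0.96 in the other 2. In bulk samples fewer cells of a type and less RNA per cell cannot be told apart.

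LAT KO replicate 1 was labelled female, but its Xist signal was -9.30, against 0.50 and -0.19 in the female WT arrays, and its Y-linked Ddx3y was at -0.23, against -8.27 and -8.91. One 4-week LAT KO array, replicate 2, was labelled male with Xist at 0.21 and Ddx3y at -8.92. WT replicate 3 and LAT KO replicate 3 at 1 week, both labelled male, had Ddx3y at 0.04 and -0.41. Their Xist was at -3.98 and -3.74, above the -7.55 and -7.37 of 4-week LAT KO replicates 1 and 3. These are the arrays compared on the shared slide, and the source of their Xist signal was not tested. In the 1-week comparison 230 of 26166 sequences were higher in LAT KO replicate 1 than in all other 5 arrays by over 1 log2 unit, and 198 were lower. Genes above included the B cell inhibitory receptor gene Cd22 at 2.67 (other 5 arrays from -1.38 to -0.40), the related Siglecg at 0.94 (-2.81 to -2.51), the MHC class II gene H2-Ab1 at 3.53 (0.11 to 1.31) and the granzyme gene Gzmb at -0.76 (-4.13 to -3.12). In the 4-week LAT KO arrays 1, 2 and 3, Cd22 was at 2.02, -1.04 and 1.87, H2-Ab1 at 2.95, 0.76 and 2.60, and Siglecg at 0.01, -2.80 and 0.10. For these 3 genes LAT KO replicate 1 of 1 week was thus nearer to 4-week replicates 1 and 3, and 4-week replicate 2 nearer to the other 1-week LAT KO arrays; whether the 2 samples were exchanged was not tested. An exchange would change which mice stand behind every 1-week value that includes LAT KO replicate 1, and behind the change from 1 to 4 weeks.

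Several lists of other cell types, and that of memory cells, were high in the same array. The mean deviation from the WT mean over the B cell markers was 1.37 in LAT KO replicate 1, -0.13 and 0.23 in the other LAT KO arrays and -0.36 to 0.27 in WT. Of the 14 tested markers 13 were positive, with a median of 0.45, and 7 were positive without that array, with a median of 0.01. The memory and effector list (27 genes) was at 1.04 in LAT KO replicate 1, and -0.07 and -0.0045 in the others; its median went from 0.38 to -0.06 without it. The NK markers were at 1.07, 0.20 and 0.20 in the 3 LAT KO arrays, the plasma cell markers at 0.47, -0.08 and 0.06, and the myeloid markers at 0.42, -0.11 and 0.10. WT replicate 2 was at 0.33, 0.15 and 0.38 for the same lists in that order. In LAT KO replicate 1 the dendritic cell markers were at 0.67, but the erythroid, platelet and CD8 T cell markers at -0.39, -0.34 and -0.06. Ms4a1, a B cell surface protein gene, was at -5.04, -3.91 and -3.69 in WT and at -1.32, -4.36 and -3.36 in LAT KO, and was not called. The 9 CD4 T cell markers were bright, with a median difference of -0.04. Their mean deviations were 0.15, -0.07 and -0.30 in LAT KO replicates 1, 2 and 3. Without LAT KO replicate 1 their median was -0.17 with 8 negative, against 0.03 over all sequences. On the shared slide it was -0.32, against 0.07 over all genes. The part of other cells in the results was not tested.

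**Figure D4:**
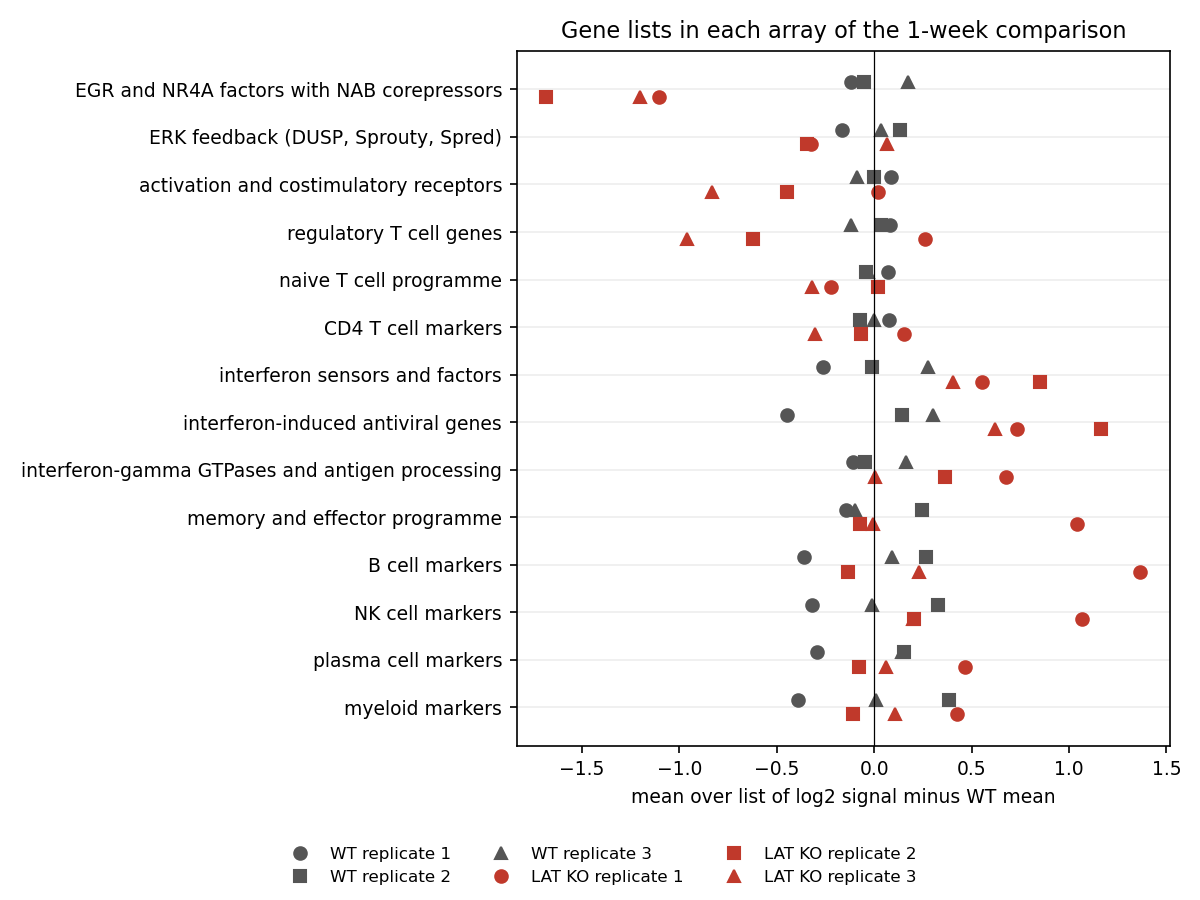
For 14 gene lists, the mean over the list of log2 signal minus the WT mean in each array (horizontal axis); grey symbols are WT and red symbols LAT KO, with shapes for replicates. LAT KO replicate 1 (red circles) is at 1.37 for B cell markers, 1.04 for the memory and effector list and 1.07 for NK markers, apart from the other 5 arrays, while all 3 LAT KO arrays lie below -1.1 for the EGR and NR4A list.

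The mean over the interferon-induced antiviral genes was higher in every LAT KO array than in any WT array, though no gene of the list was called. All 27 tested antiviral genes had a positive difference (41.61% of all sequences did), 24 of them at an unadjusted p under 0.05 (0.959% higher over all), and in 19 every LAT KO array was above every WT array (0.959% of sequences with 6 values). Their median was 0.80, against -0.05 over all genes. All 12 sensor and factor genes were positive too, 7 of them at that p, with a median of 0.52. The list was drawn up with this pattern known.

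Ifitm3, which encodes a protein that blocks virus entry, was at 0.33, 1.25 and 1.09 in WT and at 2.25, 2.82 and 2.29 in LAT KO (1.57 ± 0.33, limma adjusted p = 0.32). Irf7, the factor that amplifies type I interferon responses, was at 1.15, 1.86 and 2.35 in WT and at 2.91, 3.47 and 2.74 in LAT KO (1.25 ± 0.30, adjusted p = 0.4957). Oas3, a synthetase gene of the RNase L pathway, was at 1.48, 2.40 and 2.93 in WT and at 3.39, 3.95 and 3.28 in LAT KO (1.27 ± 0.31, adjusted p = 0.5131). In each of these genes WT replicate 1 was the lowest array and LAT KO replicate 2 the highest. Parp12 (1.06 ± 0.23), Ube2l6 (1.36 ± 0.31), Rsad2 (1.32 ± 0.37), Isg15 (1.20 ± 0.34), Isg20 (1.08 ± 0.30) and Oasl2 (1.49 ± 0.42) likewise separated the groups.

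The size of this pattern followed 2 arrays. Mean deviations over the antiviral genes were -0.45, 0.14 and 0.30 in WT and 0.73, 1.17 and 0.62 in LAT KO. Without WT replicate 1, 14 of the 27 had an unadjusted p under 0.05 (0.452% higher over all) and the median was 0.62; without LAT KO replicate 2 the count was again 14 (1.78%), with 26 positive and a median of 0.61. Without LAT KO replicate 1 it was 21 (1.76%) with a median of 0.85. On the shared slide, LAT KO replicate 3 minus WT replicate 3 had a median of 0.35 over the list and 0.07 over all genes. The sensor list had 7 genes at that p with all arrays (0.959% higher over all) and 2 without WT replicate 1 (0.452%). It had 3 without LAT KO replicate 2 (1.78%) and 4 without WT replicate 2 (2.1%). WT replicate 1 also had the lowest share of spots well above background, 84.25%, and 883 sequences below all other 5 arrays by over 1 unit; their part in the interferon values was not tested.

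**Figure D5:**
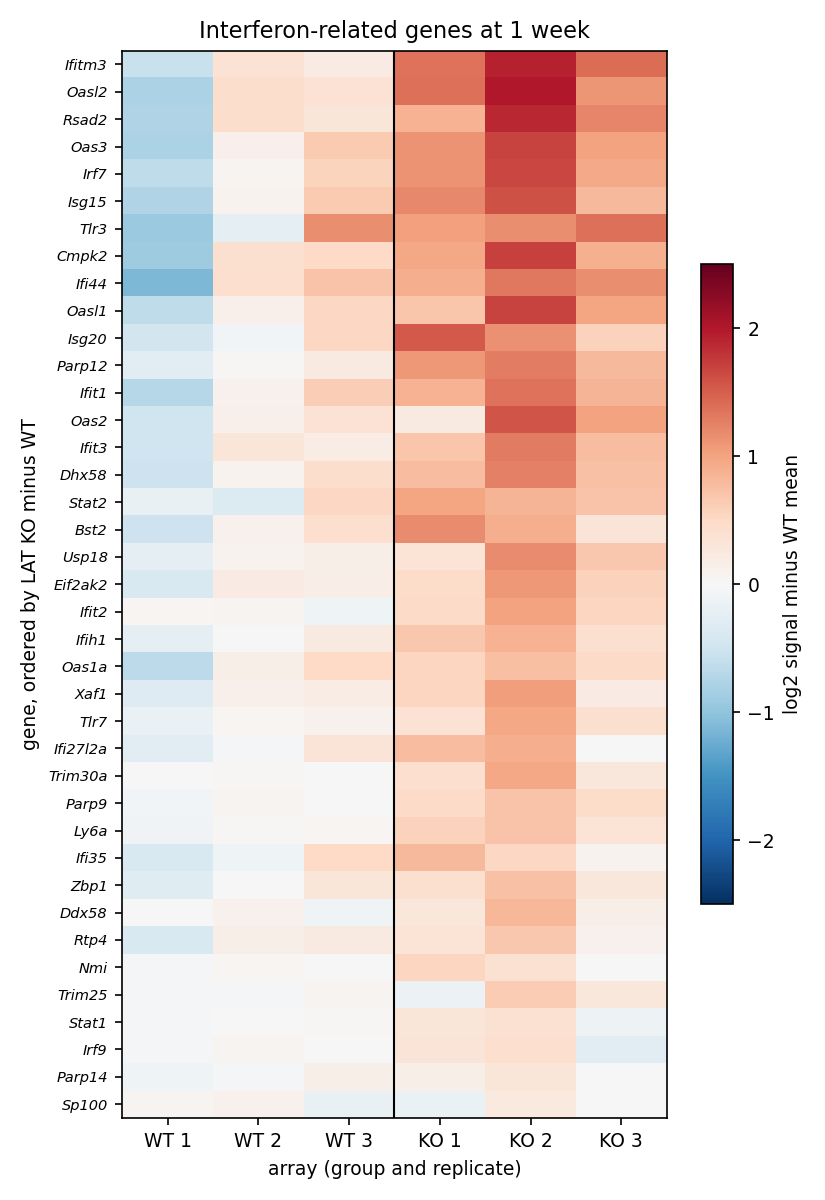
Log2 signal minus the WT mean (colour) of 39 interferon-induced, sensor and factor genes (rows, ordered by the LAT KO minus WT difference) in the 6 arrays of the comparison (columns). LAT KO replicate 2 is highest (darkest red) and WT replicate 1 lowest (blue), with mean deviations over the antiviral genes of 1.17 and -0.45.

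The Oas3 upstream sequence is shown as an example of the interferon-stimulated response element core (GAAA, 2 bases of any kind, GAAA), in capitals, 75 bases before the start; the window is chr5:120777660-120777909 (GRCm38.p6, minus strand, RefSeq).
Oas3: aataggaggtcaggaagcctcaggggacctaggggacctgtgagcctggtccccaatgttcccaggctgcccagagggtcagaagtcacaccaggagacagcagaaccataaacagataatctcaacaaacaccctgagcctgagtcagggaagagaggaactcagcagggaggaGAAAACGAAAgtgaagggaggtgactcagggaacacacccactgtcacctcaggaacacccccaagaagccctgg

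Of the 20 tested antiviral genes with such a window, 8 (40.0%) held the core on either strand, as did 1 of 8 sensor genes and 3.5% of all 27025 genes. The windows of Ifitm3, Irf7 and Parp12, named above, held no such core.

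The interferon-gamma GTPase and antigen processing list, 18 genes all positive, had a median of 0.34. It had 5 genes at an unadjusted p under 0.05 (0.959% higher over all). Without LAT KO replicate 1 its median was 0.20 (0.03 over all sequences), with 15 positive and 1 at that p (1.76%). Without WT replicate 1 or WT replicate 2 there was also 1 (0.452% and 2.1%). Without LAT KO replicate 2 there were 3 (1.78%) and without LAT KO replicate 3 there were 13 (1.93%). On the shared slide its median was -0.15, against 0.07 over all genes. The interferon receptor and JAK genes had a median of 0.05 over 7 genes, 1 of them lower at that p (1.92% lower over all).

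Other genes lay wholly apart without being called. Among the lower ones were Wnt10a, a Wnt ligand gene, at -2.84, -2.13 and -2.66 in WT and at -4.09, -4.25 and -3.97 in LAT KO (-1.56 ± 0.26, limma adjusted p = 0.06393), and Slc22a2, an organic cation transporter gene (-1.47 ± 0.28, 0.155). Igflr1, Itih5, Mfhas1, Phlda1 and Apol9b differed by -0.61, -0.82, -0.61, -0.81 and -0.75, the last without LAT KO replicate 3, whose spot was left out. Nrn1, a gene linked to T cell anergy, differed by -0.90 ± 0.24 without LAT KO replicate 3, whose spot was left out. Kept, that Nrn1 spot was at -1.12, above the WT arrays at -1.74, -1.32 and -2.14. Bbc3, which encodes the apoptosis inducer PUMA, differed by -0.65 ± 0.21.

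Among the higher genes, Gzma, the granzyme A gene, was at -4.56, -3.31 and -4.26 in WT and at 0.48, -2.36 and -2.78 in LAT KO. Its difference was 2.495 ± 0.61 (limma adjusted p = 0.5131) and 1.48 ± 0.42 without LAT KO replicate 1. Prf1, the perforin gene, was at -0.34, -0.48 and -0.16 in WT and at 0.31, 0.05 and 0.25 in LAT KO (0.53 ± 0.13, adjusted p = 0.5809). Gzmk differed by 1.39, Cxcl10, an interferon-induced chemokine gene, by 1.80, and Ifit3b by 1.70. Acoxl, Trafd1, Tor3a, Tcstv3 and Clic4 differed by 0.73, 1.02, 0.96, 0.79 and 0.64, each with all LAT KO arrays above all WT arrays.

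The remaining lists had no call at 1 week. The naive T cell programme (17 genes) had 16 negative differences with a median of -0.14 and none at an unadjusted p under 0.05. Cell cycle genes had a median of -0.13 with 3 of 22 lower at that p, inhibitory receptor and anergy genes -0.26 with 2 of 12, and TCR-induced cytokines and chemokines 0.07 with 2 of 16. Over all sequences 1.92% were lower at that p, and the median was -0.05. Without LAT KO replicate 1 these medians were -0.38, -0.56 and -0.09, and that of the glycolysis genes was -0.31 with 13 of 14 negative, against 0.03 over all sequences. BCL2 family, cholesterol synthesis, glycolysis and heat shock genes had medians between -0.10 and 0.01, with at most 1 gene in either direction at that p. The class IIa HDAC, MEF2 and protein kinase D genes had a median of 0.01, with none at that p.

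The 1-week effect was set against 4 weeks of LAT loss, with its own WT arrays, by a test of the change. No gene was called in limma (0%); at an unadjusted p under 0.05 the change was positive for 1336 sequences (4.14%) and negative for 326 (1.01%). The difference at 1 and 4 weeks was -2.02 and -1.70 for Nr4a1, -2.32 and -1.70 for Egr1, -2.44 and -2.33 for Egr2, -1.52 and -1.39 for Egr3, -2.02 and -2.12 for Irf4 and -1.20 and -1.64 for Syp. The change was 0.32 ± 0.22 (SE) for Nr4a1, 0.62 ± 0.38 for Egr1 and -0.44 ± 0.27 for Syp, with an adjusted p of 0.8146 each. For Oas3 and Irf7 the change was 0.64 ± 0.44 and 0.57 ± 0.42. LAT KO against Y136F at 1 week gave no call in limma either (0%), with 667 sequences higher (2.07%) and 1169 lower (3.62%) at an unadjusted p under 0.05. The largest of the 6 genes' differences was -1.07 ± 0.27 for Egr1 (limma adjusted p = 0.8568), and Ifitm3 differed by -0.03 ± 0.33. Without LAT KO replicate 1 both tests still gave 0 calls in limma. At an unadjusted p under 0.05 the count rose from 1662 of 32272 to 2965 of 32096 for the change to 4 weeks. For LAT KO against Y136F the count rose from 1836 of 32299 to 4613 of 32115. By the labels, the 4-week LAT KO and WT mice were all male and the 1-week Y136F mice all female. The 1-week LAT KO and WT groups were mixed, so labelled sex differed in both comparisons. Its part in them was not tested.

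Signal quality differed among the 6 arrays. The 75th percentile was 1250 to 1648 intensity units, and 84.25% to 97.87% of spots were well above background. LAT KO replicate 3 had 7888 spots marked as outliers, against 198 to 406 in the other 5, so 5961 of the tested sequences had no value in that array; it also had 841 sequences above all other 5 arrays by over 1 unit. Each group held 2 mice labelled female and 1 labelled male, and the 6 arrays lay on 5 slides.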

How the data were processed

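Per the file headers, the authors extracted 1-colour spot intensity with Agilent Feature Extraction 10.5.1.1; the deposited processed signal is a background-corrected intensity on a linear scale, and the array design refers to mm9. Per the submitters' processing notes, limma was used too. The deposited series matrix holds log2 values normalized by the authors by a method not given in the sources used here, and served as an alternative.

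The log2 of each processed intensity, minus the 75th percentile of the array's 43379 non-control spots, was averaged over spots of a probe, without spots marked as outliers. Probes seen above background on fewer than 3 of 18 arrays were dropped, and the brightest probe stood for a gene. Accessions matched to a RefSeq list (GRCm38.p6) named 24844 of 41174 probes (17178 genes). Of 32314 sequences tested, 17015 were named.

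Differences were tested two-sided in limma (version 3.58.1; R version 4.3.3), with all 18 arrays in 1 model of group means, a trend with intensity, 12 residual degrees of freedom and Benjamini-Hochberg adjustment at 0.05; Lat also with an exact permutation test. The number of arrays limits the precision. The scripts were tested on simulated data. Named genes are Lat, Nr4a1, Irf4, the called genes, the uncalled genes with the smallest p or largest size whose groups do not overlap, up to 4 members per list plus those a sentence needs, genes in which LAT KO replicate 1 stood furthest apart, and genes called without it; Penk and Tmem158 were named after their values were seen. The members and lists were chosen with earlier results of these data known. Alternatives were other background corrections, scalings, filters, probe rules, slide, sex and replicate terms, array weights and left-out arrays. Figures were drawn with matplotlib 3.10.9.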

Additional observations from a re-analysis of the deposited data

How the results depend on the processing

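With all 3 LAT KO and 3 WT arrays, 6 genes were called. The count was 0 when the model held just the 6 arrays compared (limma, 316 at an unadjusted p under 0.05) and 4 when LAT KO replicate 1 was then left out as well. It was 219 with array weights (96 higher and 123 lower), which gave LAT KO replicates 1 and 3 weights of 0.27 and LAT KO replicate 2 a weight of 3.61; the cause was not tested. It was 10 without LAT KO replicate 1 and 4-week LAT KO replicate 2, and 4 to 9 with 1 of the 6 arrays left out. In the other settings it was 4 to 9, among them 7 with normexp (on median intensity, as the files hold no mean intensity), 8 with quantile normalization, 9 with median scaling, 6 with the series matrix and 4 with slide as a fixed term. The change of the LAT KO effect to 4 weeks and the LAT KO against Y136F comparison stayed at 0 without LAT KO replicate 1.

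Of the genes followed, 3 that were not called changed sign: Foxp3 was at 0.10 and Ikzf2 at 0.24 without LAT KO replicate 3, and Egr4 at 0.034 without WT replicate 3. With 1 array left out, Foxp3 reached -0.71 and Ikzf2 -0.82 without LAT KO replicate 1, and Egr4 reached -0.70 without WT replicate 1. Tnfrsf9 passed in 4 settings and Il21 in 3. Both passed with array weights and without LAT KO replicate 1, alone or with the 4-week array. Leaving out WT replicate 1 or LAT KO replicate 3 moved the median over all genes to -0.14 and -0.12. Same-numbered LAT KO and WT arrays had correlations of 0.52, -0.16 and 0.45 in their deviations, so the numbers were not taken to pair the samples; with the replicate number as a block 5 genes were called, Syp being lost. Counts for lists without arrays other than LAT KO replicate 1 were added after seeing the data. With 3 arrays per group, small differences cannot be resolved.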
